A study of Mus musculus with 24 samples.

Results

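The intercalated disc is the seam where neighbouring heart muscle cells join end to end, and 10 of its genes were described in hearts of mice given doxorubicin, hesperitin or both. They are known components of the disc, listed by name with no threshold on their values, though earlier results of these data were known when the list was drawn up: the desmosomal genes Dsp, Pkp2, Jup, Dsg2 and Dsc2, the gap junction gene Gja1, and the adherens junction and actin linker genes Cdh2, Ctnna3, Ctnnb1 and Vcl. All 10 were found, each under 1 identifier, among 10393 genes measured at 16 h and 7723 genes measured at 72 h.

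Several kinds of junction meet in the disc. Desmosomes anchor the intermediate filaments of adjoining cells to each other, adherens junctions anchor the ends of the contractile apparatus, and gap junctions pass ions and so carry the electrical impulse from cell to cell. In human inherited arrhythmogenic cardiomyopathy, most known disease genes encode desmosomal proteins, and in many forms of human heart disease connexin 43, the gap junction protein, is reduced or moved away from the disc.

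Bulk RNA of whole heart tissue from wild-type (WT) mice was sequenced as poly(A)-selected mRNA. At 16 h after treatment the groups were DOXH (doxorubicin with hesperitin), DOX (doxorubicin at 25 mg/kg, an anthracycline cancer drug that injures the heart), H (hesperitin at 10 mg/kg per day, a citrus flavanone) and V (vehicle), and at 72 h DOX and V, with 3 libraries in each of the 6 groups and 18 libraries in all. The labels name 24 samples in 8 groups, and the hesperitin groups of 72 h were not analysed here. No source used here gives the strain, sex, age, dosing route or how many animals stand behind a sample. The p-values therefore cover the spread among these libraries, which may be technical in part.

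The libraries held 9255708 to 11074498 expected counts at 16 h in DOXH, DOX and V, 17664089 to 19869092 in H, and 16607839 to 20587603 at 72 h. Levels are given as CPM, counts relative to library size, with TMM scaling within each table. The 3 DOXH libraries did not lie together: on the first principal component at 16 h, which carried 60.8% of the variance, they stood at 8.28, 35.1 and -17.7, against 42.2, 31.1 and 29.4 for DOX and -20.7, -18 and -18.9 for V. As fits heart tissue, 15 of 15 cardiomyocyte markers were in both tables, summing to 45225 to 47835 CPM in DOX and 77006 to 86814 CPM in V at 16 h. At 72 h they summed to 27205 to 32597 CPM in DOX and 65183 to 75402 CPM in V. Of 9 mesothelial and epithelial markers, which would mark surface cells that also carry desmosomes, Wt1 was in the table of 16 h, at 13.8 to 14.2 CPM in DOX and 7.98 to 9.64 CPM in V, and none was in that of 72 h.

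Levels are of whole genes, summed over their transcripts, and exons are those of the longest annotated transcript on GRCm38. Of the desmosomal genes, Dsp at chr13:38151294-38198577 (+ strand, 24 exons), Pkp2 at chr16:16213318-16272712 (+ strand, 6 exons) and Jup at chr11:100368958-100397763 (- strand, 14 exons) lie on separate chromosomes. The cadherin genes share chromosome 18, with Dsg2 at chr18:20558074-20604521 (+ strand, 15 exons), Dsc2 at chr18:20030633-20059554 (- strand, 17 exons) and Cdh2 at chr18:16588877-16809246 (- strand, 16 exons). The other members are Gja1 at chr10:56377330-56402513 (+ strand, 3 exons), Ctnna3 at chr10:63430098-65003667 (+ strand, 18 exons), Ctnnb1 at chr9:120929216-120960507 (+ strand, 15 exons) and Vcl at chr14:20929398-21033676 (+ strand, 21 exons).

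The 10 genes differed widely in level. Per kilobase of the longest annotated transcript, V hearts at 16 h held most of Dsp, at 122 ± 10.7 CPM per kb (mean ± SD, n = 3), the gene of desmoplakin, which ties the desmosome to desmin filaments. Ctnnb1 (82.8 ± 1.56) and Gja1 (79.6 ± 3.52) followed and overlapped in range. Cdh2 (68.4 ± 5.56) came next, then Jup (49.5 ± 6.03) and Pkp2 (39.3 ± 3.89), which overlapped, then Vcl (25.5 ± 1.92) and Dsg2 (16.3 ± 1.29), and last Dsc2 (9.45 ± 0.524) and Ctnna3 (8.21 ± 0.761), which overlapped. In DOX hearts at 72 h the order was another: Ctnnb1 led with 69.9 ± 4.06 CPM per kb, Dsp (46.2 ± 4.72), Pkp2 (43.6 ± 2.91), Cdh2 (42.1 ± 3.84) and Gja1 (41.5 ± 6.42) each overlapped the next, and Ctnna3 was lowest at 2.68 ± 0.321. In V hearts at 72 h, Dsp (93.4 ± 10.5 CPM per kb) and Ctnnb1 (83.4 ± 3.26) stood at the top and overlapped, ahead of Gja1 (65 ± 6.11).

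**Figure D1:**
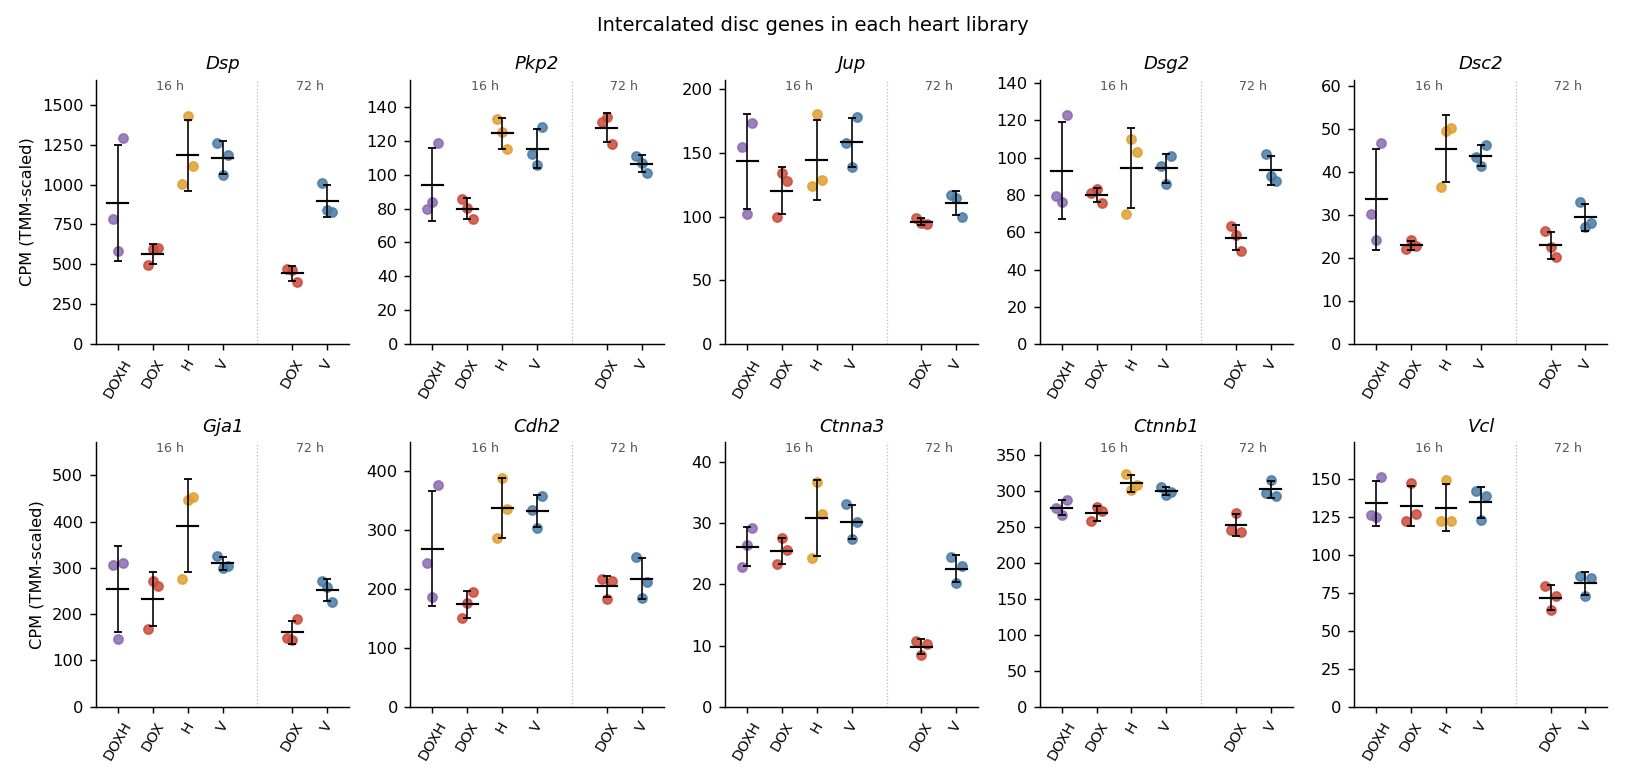
CPM (TMM-scaled within each table) of the 10 genes in each of the 18 libraries, by treatment, with 16 h to the left of the dotted line and 72 h to its right; points are libraries, bars are means and whiskers are SD (n = 3). Dsp of DOX hearts lies below that of V hearts at both times, Pkp2 of DOX hearts lies below V at 16 h and above V at 72 h, and Dsp of the 3 DOXH hearts spreads from within the DOX range to above every V heart.

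The first comparison asked what doxorubicin did to the disc genes within a day. At 16 h, 4 of the 10 genes were lower in DOX than in V hearts and none was higher: Dsp, Pkp2 and Dsc2 of the desmosome and Cdh2 of the adherens junction (edgeR quasi-likelihood test, Benjamini-Hochberg adjusted p under 0.05). Over all 10393 genes, 32.3% passed this test, 16.6% as lower and 15.6% as higher. The median log2 fold change of the 10 genes was -0.4, beside 0.02 over all genes. The 3352 genes called in all were 2230 without DOX replicate 1, 1928 without V replicate 1 and 2021 without V replicate 3. Dsp, Dsc2 and Cdh2 lost about as much as each other, with changes from -1.05 to -0.93 on the log2 scale.

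Dsp read 494, 597 and 601 CPM in DOX hearts, against 1260, 1058 and 1188 CPM in V hearts. Every DOX library lay below every V library, and the log2 fold change was -1.05 ± 0.24 (SE; edgeR adjusted p = 0.00925), a change of -51.8%. Pkp2, which encodes plakophilin 2, the armadillo-repeat protein that clusters desmosomal cadherins and binds desmoplakin, read 85.9, 80.1 and 73.7 CPM in DOX hearts, against 112, 106 and 128 CPM in V hearts. These ranges did not overlap either, and the change was smaller, at -0.53 ± 0.14 (edgeR adjusted p = 0.0164). The call on Pkp2 was lost without DOX replicate 3 (-0.47, adjusted p = 0.0565) or V replicate 3 (-0.45, adjusted p = 0.0667).

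The desmosome has its own pair of cadherins, desmoglein and desmocollin, and in the heart these are chiefly the products of Dsg2 and Dsc2. Dsc2 read 22, 24.1 and 22.8 CPM in DOX hearts, against 43.6, 41.4 and 46.3 CPM in V hearts, at -0.93 ± 0.2 on the log2 scale (edgeR adjusted p = 0.00787). Dsg2 read 81.2, 83.3 and 75.9 CPM in DOX hearts, against 95.6, 86.1 and 101 CPM in V hearts. All 3 DOX libraries were again the lower ones, but the change of -0.23 ± 0.19 did not pass the test (edgeR adjusted p = 0.369). Jup, the gene of plakoglobin, which binds the tails of both desmosomal and classical cadherins, read 99.6, 134 and 128 CPM in DOX hearts, against 158, 139 and 178 CPM in V hearts. The groups did not overlap, and the change of -0.4 ± 0.21 did not pass (edgeR adjusted p = 0.153).

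N-cadherin, the classical cadherin that holds heart muscle cells together, is encoded by Cdh2, which read 150, 175 and 195 CPM in DOX hearts, against 333, 303 and 357 CPM in V hearts. The groups were well apart, at -0.94 ± 0.22 on the log2 scale (edgeR adjusted p = 0.00974). Its cytoplasmic partner Ctnnb1, beta-catenin, which also carries Wnt signals to the nucleus, read 258, 278 and 272 CPM in DOX hearts, against 306, 295 and 299 CPM in V hearts. This was a small difference without overlap, -0.15 ± 0.06, that did not pass (edgeR adjusted p = 0.0842). Ctnna3, alpha-T-catenin, which links the cadherin complex to actin and binds plakophilin 2, read 23.4, 27.6 and 25.6 CPM in DOX hearts, against 33.1, 27.5 and 30.2 CPM in V hearts, with overlap (-0.24 ± 0.15, edgeR adjusted p = 0.222).

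Gja1, the gene of connexin 43, read 167, 272 and 260 CPM in DOX hearts, against 325, 299 and 305 CPM in V hearts. All DOX libraries were lower, DOX replicate 1 by the most, and the change of -0.41 ± 0.28 did not pass (edgeR adjusted p = 0.279). Without DOX replicate 1 the estimate was nearer to 0, at -0.215 (edgeR adjusted p = 0.62). Vcl, the gene of vinculin, which couples cadherin and integrin adhesions to actin, read 122, 147 and 127 CPM in DOX hearts and 142, 123 and 139 CPM in V hearts, with ranges that overlapped (-0.02 ± 0.11, edgeR adjusted p = 0.883). Vcl overlaps Ap3m1 on the opposite strand, both are in the tables, and no source used here gives the strand setting of the counting, so reads of their shared stretch cannot be told apart. In all, 8 of the 10 genes had every DOX library below every V library, against 28% of all genes, and 0 had every DOX library above, against 28.4%, so that 56.4% of all genes did not overlap. With the H and DOXH libraries left out of the fit, Dsg2 (adjusted p = 0.0319) and Jup (adjusted p = 0.0405) passed as well.

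The second comparison asked the same at 72 h. Here 6 of the 10 genes were lower in DOX than in V hearts, namely Ctnna3, Dsp, Dsg2, Gja1, Dsc2 and Ctnnb1, and 1 was higher, Pkp2 (edgeR adjusted p under 0.05). Across the 7703 genes tested, 53.7% passed, 27.2% as lower and 26.5% as higher, so a call was common at this time. The median log2 fold change of the 10 genes was -0.31, beside 0.01 over all genes. Ctnna3 (-1.19) and Dsp (-1.01) stood furthest from the V hearts.

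Ctnna3 read 10.8, 8.54 and 10.2 CPM in DOX hearts, against 24.5, 20.2 and 23 CPM in V hearts. No DOX library came near a V library, and the log2 fold change was -1.19 ± 0.12 (edgeR adjusted p = 7.68e-05). Dsp read 473, 466 and 391 CPM in DOX hearts, against 1012, 843 and 831 CPM in V hearts. The separation was as wide as at 16 h, at -1.01 ± 0.11 on the log2 scale (edgeR adjusted p = 0.000127).

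Pkp2 was the gene that went the other way, with 131, 134 and 118 CPM in DOX hearts, against 111, 107 and 101 CPM in V hearts. Every DOX library was above every V library, and the change was modest, 0.27 ± 0.08 on the log2 scale (edgeR adjusted p = 0.0238). It was lost without DOX replicate 1 (adjusted p = 0.0693), DOX replicate 2 (0.0652), V replicate 2 (0.0701) or V replicate 3 (0.105), with estimates of 0.23 to 0.32 over all 6 libraries left out.

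The desmosomal cadherins were both lower at this time. Dsg2 read 63.3, 58.5 and 49.7 CPM in DOX hearts, against 102, 90.3 and 87.3 CPM in V hearts (-0.71 ± 0.11, edgeR adjusted p = 0.000582). Dsc2 read 26.4, 22.5 and 20.2 CPM in DOX hearts, against 33.1, 27.3 and 28.1 CPM in V hearts, a narrower gap of -0.36 ± 0.12 (edgeR adjusted p = 0.0302). The Dsc2 call was lost without DOX replicate 2 (adjusted p = 0.0621), the DOX replicate without a number (0.0838) or V replicate 1 (0.126). Jup, at 99.3, 94.9 and 94.2 CPM in DOX hearts against 117, 115 and 99.6 CPM in V hearts, differed by -0.2 ± 0.09 and missed the threshold (edgeR adjusted p = 0.0753), except without V replicate 3 (-0.28, adjusted p = 0.0383).

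Gja1 read 149, 144 and 190 CPM in DOX hearts, against 272, 259 and 226 CPM in V hearts. The connexin transcript was lower in each DOX library, at -0.65 ± 0.12 on the log2 scale (edgeR adjusted p = 0.00193). Ctnnb1 read 246, 270 and 243 CPM in DOX hearts, against 298, 316 and 293 CPM in V hearts, a small shift of -0.25 ± 0.08 (edgeR adjusted p = 0.0261). That call was lost without DOX replicate 1 (adjusted p = 0.0761), the DOX replicate without a number (0.0743), V replicate 2 (0.0848) or V replicate 3 (0.0519).

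Cdh2 read 216, 183 and 213 CPM in DOX hearts and 254, 185 and 212 CPM in V hearts. The ranges overlapped, and the difference of -0.09 ± 0.12 did not pass (edgeR adjusted p = 0.561). Vcl read 79.6, 63.4 and 72.6 CPM in DOX hearts and 86.3, 72.6 and 84.6 CPM in V hearts, also with overlap (-0.18 ± 0.11, edgeR adjusted p = 0.184). In all, 7 of the 10 genes had every DOX library below every V library, against 32.2% of all genes, and 1 had every DOX library above, against 31.3%, and 63.5% of all genes did not overlap.

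**Figure D2:**
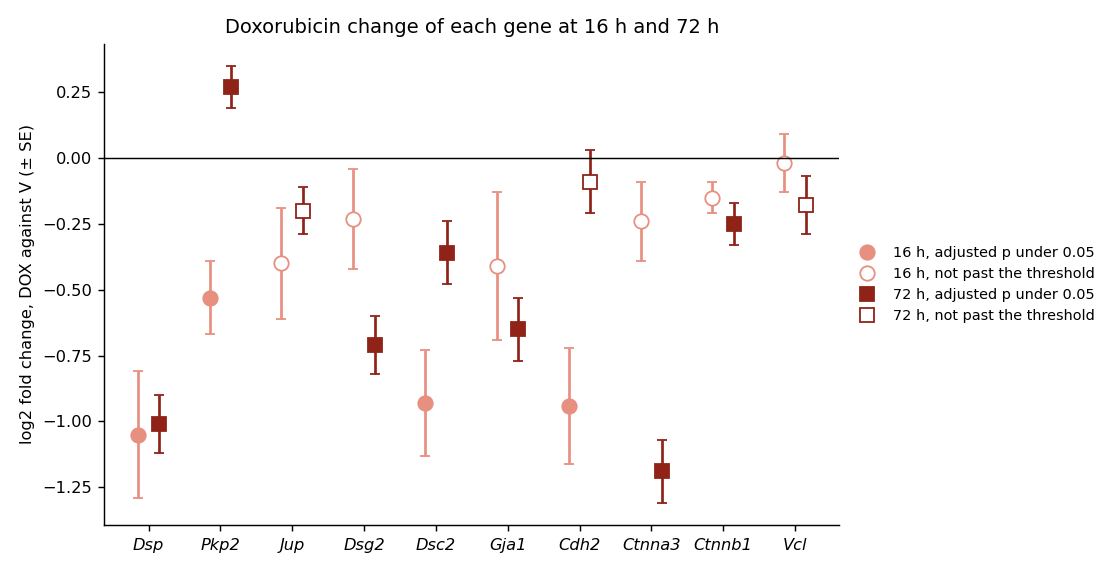
Log2 fold change of DOX against V (± SE, n = 3 per group) for each gene at 16 h (circles) and 72 h (squares); filled symbols passed an edgeR adjusted p of 0.05. Dsp lies near -1 at both times, Pkp2 lies below 0 at 16 h and above 0 at 72 h, Cdh2 lies near 0 at 72 h, and Ctnna3 is the lowest at 72 h.

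Whether the doxorubicin change itself differed between the times was tested in 1 fit of all 18 libraries over the 7422 genes in both tables. The difference passed for 3 of the 10 genes, 2 as higher at 72 h and 1 as lower, where 27% of all genes passed (12.4% as higher, 14.6% as lower). Pkp2 was higher at 72 h than at 16 h relative to V, by 0.77 ± 0.17 on the log2 scale (edgeR adjusted p = 0.00478), and so was Cdh2, by 0.83 ± 0.28 (edgeR adjusted p = 0.0397). Ctnna3 was lower at 72 h, at -0.97 ± 0.2 (edgeR adjusted p = 0.00281). For Dsp the difference was 0.02 ± 0.3 (edgeR adjusted p = 0.974), an estimate whose SE leaves room for sizeable differences in either direction. Dsg2 (-0.49 ± 0.24, edgeR adjusted p = 0.141) and Dsc2 (0.55 ± 0.26, edgeR adjusted p = 0.126) did not pass, nor did Jup, Gja1, Ctnnb1 and Vcl, with estimates from -0.26 to 0.17. The Cdh2 difference was lost in 9 of the 12 fits that left out 1 DOX or V library, with adjusted p from 0.034 to 0.0947 over the 12, while those of Pkp2 (0.00601 to 0.0152) and Ctnna3 (0.00348 to 0.012) passed in all 12.

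The libraries whose removal ended the Cdh2 call were DOX replicates 1 (0.728, adjusted p = 0.0837) and 2 (0.836, 0.0696) and V replicates 1 (0.823, 0.0698), 2 (0.894, 0.0531) and 3 (0.773, 0.0822) of 16 h. At 72 h they were DOX replicate 1 (0.783, 0.0782), the DOX replicate without a number (0.791, 0.0705) and V replicates 2 (0.73, 0.0947) and 3 (0.815, 0.0786). The estimate therefore lay between 0.73 and 0.97 in all 12 of these fits.

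Ratios of partner genes within a library do not depend on how libraries are scaled, and 3 of them, chosen after the values were seen, carry these shifts. Pkp2 and Dsp encode proteins that bind each other in the desmosomal plaque. There were 27.8, 28.7 and 30.1 Pkp2 reads per 100 Dsp reads in DOX hearts at 72 h, against 10.9, 12.7 and 12.2 in V hearts. At 16 h the ratio was 17.4, 13.4 and 12.3 in DOX hearts, against 8.92, 9.99 and 10.8 in V hearts, so it was higher in every DOX library at both times.

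Ctnna3 shares its role with Ctnna1, the more widely expressed alpha-catenin. There were 4.28, 3.45 and 4.26 Ctnna3 reads per 100 Ctnna1 reads in DOX hearts at 72 h, against 6.39, 6.2 and 6.57 in V hearts. At 16 h the order was the opposite, with 8.21, 8.93 and 8.22 in DOX hearts, against 7.23, 6.24 and 6.58 in V hearts. The pair of desmosomal cadherins turned too. Dsc2 reads per 100 Dsg2 reads were 27, 28.9 and 30 in DOX hearts at 16 h, against 45.6, 48.1 and 45.9 in V hearts, and 41.7, 38.5 and 40.6 in DOX hearts at 72 h, against 32.4, 30.3 and 32.2 in V hearts. None of these groups overlapped, and no test was run on ratios picked for their values. Jup per 100 Ctnnb1, another pair looked at, overlapped between DOX and V hearts at both times (35.1 to 40.3 in DOX and 34 to 39.3 in V hearts at 72 h). Gja1 per 100 Cdh2, also looked at, did not overlap and lay above V at 16 h and below V at 72 h.

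**Figure D3:**
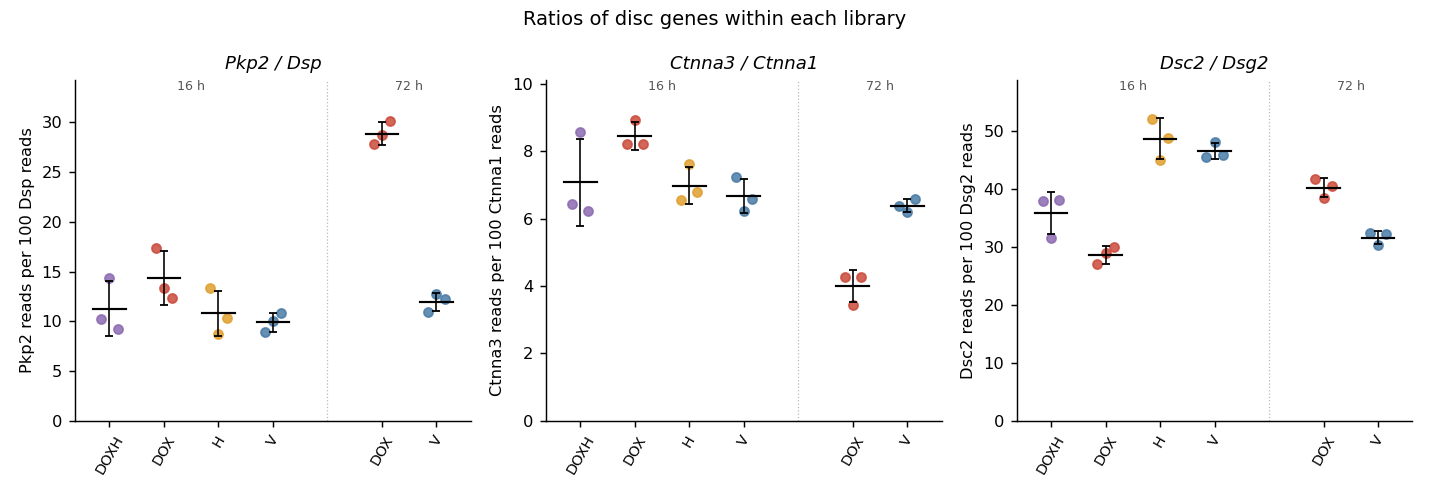
Reads of 1 gene per 100 reads of its partner in each library, for Pkp2 over Dsp, Ctnna3 over Ctnna1 and Dsc2 over Dsg2, with 16 h left and 72 h right of the dotted line; points are libraries, bars are means and whiskers are SD (n = 3). Pkp2 per 100 Dsp is 27.8 to 30.1 in DOX hearts and 10.9 to 12.7 in V hearts at 72 h, and the other ratios lie on opposite sides of V at the 2 times.

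The start regions of Dsp, Gja1 and Ctnna3, 3 genes that were lower at 72 h, are shown beside that of Vcl, which passed at neither time. Of the 10 genes, 6 have a window in the RefSeq table used (build GRCm38.p6), and each sequence is the 250 bases before the RefSeq start, 5′ to 3′. Capitals mark matches, on either strand, to the GC box GGGCGG, the CCAAT box CCAAT, the AP-1 motif TGANTCA, the GATA motif AGATAA and the M-CAT motif GGAATG.
Dsp, chr13:38151044-38151293, + strand: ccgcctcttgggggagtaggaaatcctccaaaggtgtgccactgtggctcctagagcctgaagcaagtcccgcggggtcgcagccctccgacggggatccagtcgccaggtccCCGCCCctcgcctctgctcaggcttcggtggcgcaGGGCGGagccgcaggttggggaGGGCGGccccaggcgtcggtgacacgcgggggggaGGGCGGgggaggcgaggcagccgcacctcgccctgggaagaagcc
Gja1, chr10:56377050-56377299, + strand: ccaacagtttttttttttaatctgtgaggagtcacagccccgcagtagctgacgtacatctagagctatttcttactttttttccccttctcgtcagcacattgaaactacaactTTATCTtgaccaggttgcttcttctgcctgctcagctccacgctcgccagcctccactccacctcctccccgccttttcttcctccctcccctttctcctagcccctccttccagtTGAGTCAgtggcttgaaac
Ctnna3, chr10:63429848-63430097, + strand: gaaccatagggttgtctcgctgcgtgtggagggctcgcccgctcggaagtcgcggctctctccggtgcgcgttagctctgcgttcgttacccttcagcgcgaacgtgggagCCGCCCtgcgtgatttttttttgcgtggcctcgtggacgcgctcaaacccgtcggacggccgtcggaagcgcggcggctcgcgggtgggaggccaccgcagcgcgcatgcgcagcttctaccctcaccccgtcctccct
Vcl, chr14:20929148-20929397, + strand: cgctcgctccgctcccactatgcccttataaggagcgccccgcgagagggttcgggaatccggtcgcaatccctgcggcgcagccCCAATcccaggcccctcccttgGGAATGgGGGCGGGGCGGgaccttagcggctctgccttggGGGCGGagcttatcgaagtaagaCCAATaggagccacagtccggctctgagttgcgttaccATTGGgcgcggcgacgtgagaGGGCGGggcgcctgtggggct

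These windows did not look alike. The Dsp window is 72.4% G or C, with 22 CpG and 4 GC boxes, the Ctnna3 window is 67.6% with 36 CpG and 1 GC box, and the Vcl window is 67.2% with 24 CpG, 4 GC boxes, of which 2 overlap, 3 CCAAT boxes and 1 M-CAT motif. The Gja1 window is 50% G or C with 6 CpG, which are near the medians of 52.4% and 6 over all 32851 windows of this length, and it holds 1 AP-1 motif at positions -19 to -13 and 1 GATA motif. Among all windows, 32.7% hold a GC box, 33.8% a CCAAT box, 6.75% the AP-1 motif, 9.99% the GATA motif and 12.6% the M-CAT motif. The E-box CACGTG (6.02% of all windows) and the TATA motif TATAAA (12.4%) had no match in the 4 windows. The lower genes shared the GC box in Dsp and Ctnna3, and Vcl held it as well, and no motif searched was in the windows of all 3 lower genes and missing from that of Vcl.

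The cardiomyocyte markers were mostly lower in DOX than in V hearts too. Their median change was larger than that of the 10 disc genes, which was -0.4 at 16 h and -0.31 at 72 h. At 16 h all 15 markers were lower in DOX than in V hearts (median log2 fold change -0.73), and at 72 h 14 of 15 were (median -1.29), as edgeR called them. Of all genes, edgeR called 16.6% lower and 15.6% higher at 16 h, and 27.2% lower and 26.5% higher at 72 h. Myh6 made up 22.6% of their sum in V hearts at 16 h, and Tnnt2 17.9% in DOX hearts at 72 h. In bulk tissue, fewer cardiomyocytes and less RNA of a gene per cardiomyocyte cannot be told apart. Markers of other cell types were counted at 72 h beside the shares of all genes above. Of 10 endothelial markers, 6 were higher and 1 lower. They summed to 1494 to 2070 CPM in DOX hearts and 1149 to 1256 CPM in V hearts. Of 8 macrophage markers, 5 were higher and 1 lower (333 to 416 CPM in DOX hearts, 226 to 295 CPM in V hearts). All 4 neutrophil markers were higher (48 to 228 CPM in DOX hearts, 1.98 to 3.38 CPM in V hearts). Fibroblast markers summed to 1711 to 2592 CPM in DOX hearts and 1223 to 1633 CPM in V hearts (3 of 9 higher, 1 lower) and mural markers to 706 to 795 CPM in DOX hearts and 659 to 770 CPM in V hearts (1 of 8 lower), and 5 of 5 erythroid markers were lower, at 20.6 to 33 CPM in DOX hearts and 1436 to 3523 CPM in V hearts. The fibroblast counts were not far from the shares of all genes, and the mural count was below them, with sums that overlapped. At 16 h, endothelial, fibroblast, mural, macrophage and erythroid sums of DOX and V hearts overlapped. Of single markers, 2 of 10 endothelial, 2 of 8 mural and 2 of 5 erythroid ones were lower then (list medians -0.08, -0.23 and -0.65), 1 of 9 macrophage markers was higher and 1 lower, and none of 10 fibroblast markers passed. These counts, of few genes each, were mostly near or below the shares of all genes at 16 h. Neutrophil markers summed to 141 to 256 CPM in DOX hearts and 24 to 73.1 CPM in V hearts at 16 h, where 1 of 6 passed, as higher. The part of these shifts in the changes of the disc genes was not tested.

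The disc genes were also set against the sum of the cardiomyocyte markers in the same library. That sum had a mean of 46884 CPM in DOX and 82877 CPM in V hearts at 16 h. At 72 h the means were 29854 CPM in DOX and 69346 CPM in V hearts. A gene whose own level did not change would therefore read higher in DOX hearts on this ratio. The share of all genes that did so was not worked out. At 16 h, Dsp (-0.23 ± 0.11, log2 of the ratio, DOX minus V, ± SE), Cdh2 (-0.12 ± 0.14) and Dsc2 (-0.11 ± 0.06) lay at or a little below the markers' own change, and the other 7 lay above it, from Pkp2 (0.29 ± 0.08) to Vcl (0.79 ± 0.08). DOX and V libraries overlapped at 16 h for Jup (0.42 ± 0.16), Gja1 (0.38 ± 0.24), Cdh2 and Dsc2. They did not for the other genes, Dsp among them. At 72 h, Ctnna3 (0.02 ± 0.19) and Dsp (0.2 ± 0.12) had changed about as much as the markers, with DOX and V libraries that overlapped. The other 8 were higher relative to the markers in every DOX library: Pkp2 by 1.48 ± 0.09, Cdh2 by 1.14 ± 0.18, Vcl by 1.04 ± 0.19, Jup by 1.02 ± 0.11, Ctnnb1 by 0.96 ± 0.09, Dsc2 by 0.85 ± 0.17, Gja1 by 0.56 ± 0.16 and Dsg2 by 0.51 ± 0.15. Each of these 8 reached an exact two-sided permutation p of 0.1, the smallest that 3 against 3 libraries allow.

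**Figure D4:**
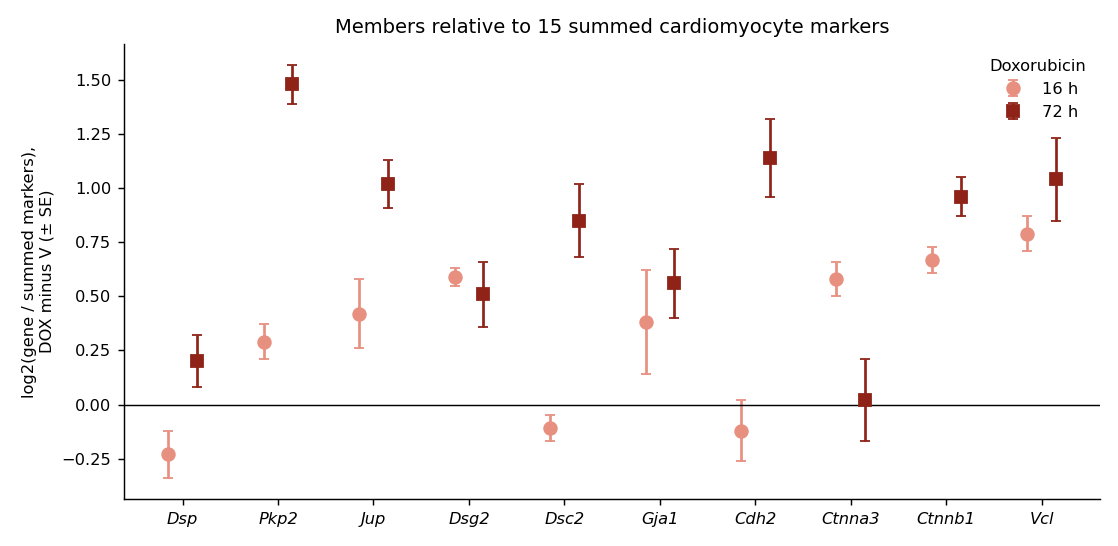
Log2 of each gene's CPM over the summed CPM of 15 cardiomyocyte markers in the same library, as the mean of DOX minus the mean of V (± SE, n = 3 per group), at 16 h (circles) and 72 h (squares). At 72 h Pkp2 is highest at 1.48, and Ctnna3 (0.02) and Dsp (0.2) lie nearest to 0. The marker sum was lower in DOX than in V hearts, so a gene with no change of its own lies above 0.

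Hesperitin alone left no called difference in the disc genes. Between H and V hearts, 0 of the 10 genes passed, none had an unadjusted p under 0.05, and the estimates lay from -0.13 for Jup to 0.34 for Gja1. Over all genes edgeR called 0 (0% of 10393; 664 at an unadjusted p under 0.05) and DESeq2 called 12. Gja1 read 275, 446 and 453 CPM in H hearts, against 325, 299 and 305 CPM in V hearts, so 1 H library was below and the other two were above all V libraries (0.34 ± 0.28, edgeR adjusted p = 0.899). All 10 genes overlapped between H and V hearts, where 8.04% of all genes were higher and 7.53% lower without overlap.

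Hesperitin given with doxorubicin was compared with doxorubicin alone. Between DOXH and DOX hearts, 0 of the 10 genes passed, beside 0 (0%) of all genes in edgeR (1958 at an unadjusted p under 0.05) and 379 in DESeq2. All 10 estimates were above 0, from 0.02 to 0.65, and 3 genes had an unadjusted p under 0.05: Dsp (0.65 ± 0.24, edgeR adjusted p = 0.192), Cdh2 (0.63 ± 0.22, edgeR adjusted p = 0.181) and Dsc2 (0.55 ± 0.21, edgeR adjusted p = 0.194). These were 3 of the 4 genes that were lower in DOX than in V hearts at 16 h, but the comparisons share the DOX libraries, so the match is no separate evidence.

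The 3 DOXH libraries differed among themselves in these genes. Dsp read 784, 581 and 1289 CPM in DOXH hearts, against 494, 597 and 601 CPM in DOX hearts: DOXH replicate 2 lay within the DOX range, replicate 3 was above every V library and replicate 1 lay between. Cdh2 followed that order, with 243, 186 and 375 CPM in DOXH hearts, against 150, 175 and 195 CPM in DOX hearts, and so did Dsc2, with 30.2, 24.1 and 46.8 CPM in DOXH hearts, against 22, 24.1 and 22.8 CPM in DOX hearts. The cardiomyocyte marker sum spread likewise, from 54103 to 82371 CPM in DOXH hearts. Without DOXH replicate 2, Dsp (0.88, adjusted p = 0.0193), Cdh2 (0.83, adjusted p = 0.0167) and Dsc2 (0.74, adjusted p = 0.0214) passed, and 1554 genes did over the whole table. Without DOXH replicate 3 the estimates were 0.275 for Dsp, 0.306 for Cdh2 and 0.245 for Dsc2, and without DOXH replicate 1 or 3 none of the 10 passed. With all 3 libraries, each of the 10 genes overlapped between DOXH and DOX hearts, where 10.1% of all genes were higher and 8.72% lower without overlap. Relative to the cardiomyocyte marker sum (log2 ratio, DOXH minus DOX, ± SE), Dsp (0.13 ± 0.19), Cdh2 (0.13 ± 0.18) and Dsc2 (0.05 ± 0.11) overlapped, as did Jup and Gja1. The ratios of Pkp2, Dsg2, Ctnna3, Ctnnb1 and Vcl were lower in every DOXH library, from -0.43 for Vcl to -0.23 for Pkp2. The marker sum itself was higher in every DOXH library than in DOX hearts (45225 to 47835 CPM). A gene with no change of its own would therefore also read lower on this ratio, and the share of all genes that did was not worked out.

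Against V hearts, DOXH hearts showed 0 of the 10 genes past the test, beside 0 (0%) of all genes in edgeR (1749 at an unadjusted p under 0.05) and 131 in DESeq2. The estimates lay from -0.4 for Dsp to near 0 for Vcl, and 1 gene, Ctnnb1, had every DOXH library (277, 267 and 287 CPM) below every V library (306, 295 and 299 CPM), where 9.84% of all genes did and 9.4% lay above without overlap. Without DOXH replicate 3, 4 genes passed as lower, Dsp (-0.78, adjusted p = 0.0133), Dsc2 (-0.69, adjusted p = 0.011), Cdh2 (-0.63, adjusted p = 0.0225) and Pkp2 (-0.5, adjusted p = 0.00969), with 1674 genes over the whole table. Without DOXH replicate 2 the estimates were nearest to 0, at -0.171 for Dsp, -0.184 for Dsc2 and -0.099 for Cdh2. The interaction, which asks whether hesperitin acted differently with and without doxorubicin, passed for 0 of the 10 genes and, in edgeR, for 0 (0%) of all genes (1228 at an unadjusted p under 0.05; 42 in DESeq2), with the widest estimates at Dsp (0.63 ± 0.34) and Cdh2 (0.61 ± 0.3). Summed over the 10 genes, the libraries read 2104, 1618 and 2904 CPM in DOXH hearts, 1503 to 1819 CPM in DOX hearts, 2397 to 3216 CPM in H hearts and 2478 to 2809 CPM in V hearts.

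Other components of the disc were followed in 7 further lists. Their counts stand beside all genes, of which 16.6% were called lower and 15.6% higher at 16 h, and 27.2% lower and 26.5% higher at 72 h, with medians of 0.02 and 0.01. Among 12 channels, anchors and membrane proteins of the disc, 9 were lower in DOX than in V hearts at 16 h and 10 at 72 h, and none was higher (medians -0.58 and -0.71). Ank2, the gene of ankyrin-B, which anchors ion transporters, was lower at both times, with -1.31 at 16 h and -1.28 at 72 h. Tmem65, a disc membrane protein that binds connexin 43 in the mouse, read 153 to 186 CPM in DOX hearts and 203 to 220 CPM in V hearts at 16 h without passing, and 78.8 to 81.4 CPM in DOX hearts and 184 to 215 CPM in V hearts at 72 h (-1.35 ± 0.09, edgeR adjusted p = 2.15e-05). Its difference between the times was -1.07 ± 0.15 (edgeR adjusted p = 0.000427). Kcnq1 and Abcc9, subunits of potassium channels, were lower too, with -1.98 for Kcnq1 and -0.62 for Abcc9 at 16 h, and -0.94 for Kcnq1 and -1.59 for Abcc9 at 72 h.

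Of 19 linkers between the disc, actin and the Z-disc, 10 were lower and 1 higher at 16 h (median -0.58), and 8 lower and 2 higher at 72 h (median -0.28). The 10 called at 72 h are about the share of all genes called then, 53.7%. Ldb3, a Z-disc scaffold, read 341 to 382 CPM in DOX hearts and 735 to 815 CPM in V hearts at 16 h (-1.12 ± 0.18, edgeR adjusted p = 0.00318). Nebl, the gene of nebulette, was lower at both times (-1.23 at 16 h, -1.36 at 72 h), as was Tln2, a talin (-0.74 at 16 h, -0.77 at 72 h). Xirp2, an actin-binding disc protein, was lower at 72 h (-1.19) and at 16 h (-0.63). The genes that were higher were the integrin Itga7 at 16 h (0.54), and at 72 h the integrin Itgb1 (0.29) and Nrap (0.32), which ties actin to the disc during myofibril assembly.

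Of the partners of the adherens junction, 2 of 10 were lower at 16 h, Ctnna1 (-0.58 ± 0.14, edgeR adjusted p = 0.0102) and Cdh13 (-0.49 ± 0.12, edgeR adjusted p = 0.0115), with a list median of 0.01, a share near that of all genes called lower. At 72 h 4 of 9 were lower, with Cdh13 (-1.07), Nectin2 (-0.7) and Ctnna1 (-0.52) the lowest, and 2 were higher, among them Pkp4 (0.62), so the share called was not far from the 53.7% of all genes. Pkp4, a relative of the plakophilins, thus stood on the same side as Pkp2 at 72 h. At 16 h it stood on the opposite side to Pkp2, with 124 to 162 CPM in DOX hearts and 109 to 117 CPM in V hearts, without passing. Its difference between the times did not pass (0.24 ± 0.23, edgeR adjusted p = 0.463). Of the other desmosomal and associated genes, 4 of 11 were in the tables, and Dsg1a, Dsg3, Dsc1, Dsc3, Pkp1 and Pkp3, the skin and stratified epithelium forms, were in neither. Tmem43, whose human gene is a cause of arrhythmogenic cardiomyopathy, was higher at 16 h (0.47 ± 0.09, edgeR adjusted p = 0.0048), and at 72 h all 4 were higher: Tmem43 (0.62), Perp (0.36), the plakin gene Ppl (0.87) and Des (0.45). Des, the gene of desmin, the filament that desmoplakin binds, read 1230 to 1640 CPM in DOX hearts and 960 to 1150 CPM in V hearts at 72 h, beside Dsp levels that were lower in the same DOX libraries. At 16 h Des was on the lower side like Dsp, with 957 to 1050 CPM in DOX hearts and 1120 to 1320 CPM in V hearts, without passing. Its difference between the times passed (0.76 ± 0.19, edgeR adjusted p = 0.00742).

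Among other connexins, Gja3 (-1.48 ± 0.37) and Gja4 (-0.61 ± 0.17), the connexin 37 gene of endothelium, were lower at 16 h, and Gjc1, the connexin 45 gene, was higher at 72 h (0.57 ± 0.11, edgeR adjusted p = 0.00207), the only 1 of the 7 in that table. Its difference between the times passed at 0.68 ± 0.17 (edgeR adjusted p = 0.00764). Of 11 genes of the beta-catenin destruction complex and Wnt targets, Bambi (0.88) and Axin1 (0.35) were higher and Ccnd1 (-0.62) lower at 16 h. At 72 h Ccnd1 (-0.94) and the kinase gene Gsk3b (-0.52) were lower of 6 tested. Of the genes of connexin and junction trafficking, Prkce and Prkca, kinases that phosphorylate connexin 43, were lower at both times (Prkce at -0.79 and Prkca at -0.8 at 16 h, Prkce at -0.66 and Prkca at -0.48 at 72 h). In that list 2 of 15 were higher at 16 h, Src (0.67) and Smurf2 (0.28), and at 72 h 2 of 14 were higher and 4 lower. The count higher at 16 h was near the 15.6% of all genes, and the 6 called at 72 h were not far from the 53.7% of all genes called then.

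**Figure D5:**
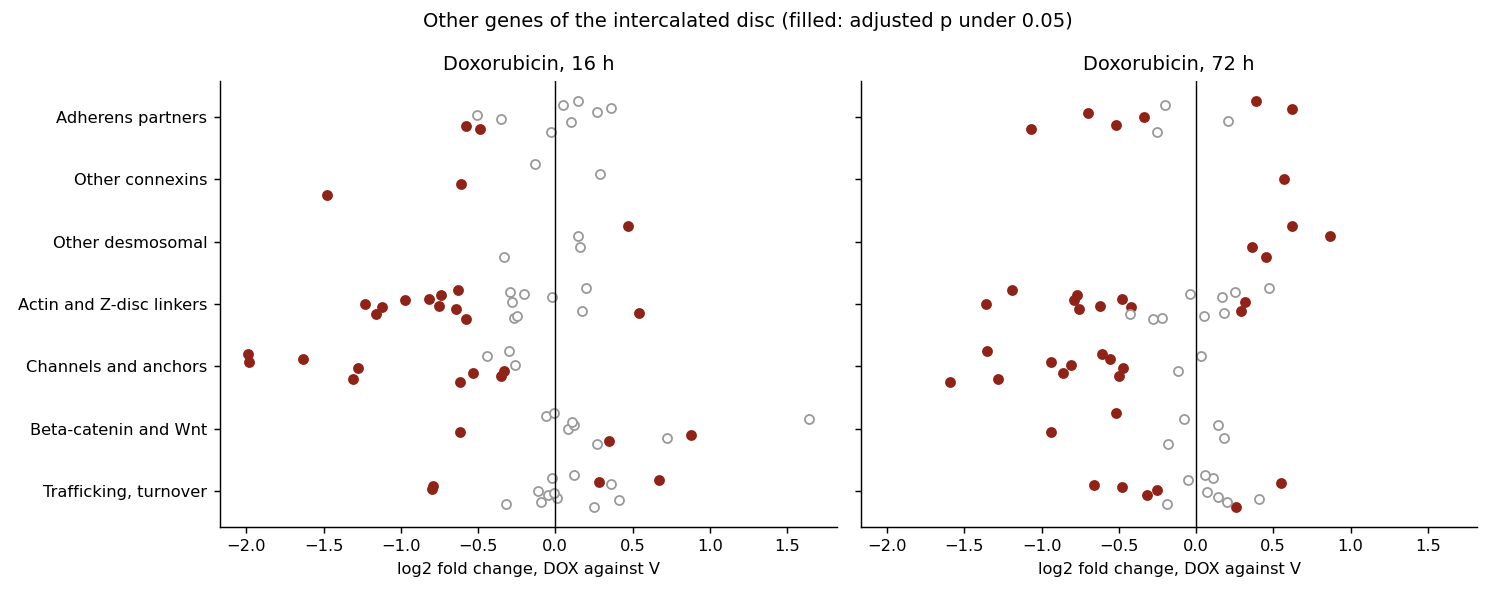
Log2 fold change of DOX against V for each tested gene of 7 lists of other disc components, at 16 h (left) and 72 h (right); each point is a gene, filled where the edgeR adjusted p was under 0.05. Channels and anchors lie mostly below 0 at both times (9 and 10 of 12 called lower), and all 4 other desmosomal genes lie above 0 at 72 h.

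The genes whose values ran closest to each member were found by the root-mean-square distance of log2 CPM, taken relative to the V mean of the same table, over all 18 libraries. Dsp lay closest to Usp13 (0.12), Pkp2 to Actr8 (0.1), Jup to Gata4 (0.12), Dsg2 to Clcn3 (0.11) and Dsc2 to Nbeal1 (0.12). Gja1 lay closest to Prickle1 (0.18), Cdh2 to Dysf (0.12), Ctnna3 to Cs (0.13), Ctnnb1 to Ppm1a (0.068) and Vcl to Nedd4 (0.086). The next genes were nearly as close, as with Myo18b (0.13) and Slc8a1 (0.14) for Dsp, so no nearest gene stands out as a specific partner. Within the list the closest pairs were Dsc2 with Cdh2 and Ctnnb1 with Vcl, at 0.16 each, and the most distant was Pkp2 with Ctnna3, at 0.64. Measured the same way, Dsc2 (0.49) and Cdh2 (0.47) lay much further from the V mean than from each other. Ctnnb1 and Vcl lay only 0.14 each from the V mean, so their small distances go with small changes. Dsp and Pkp2, whose proteins bind each other, stood 0.6 apart.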

How the data were processed

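Heart RNA with an RNA integrity number above 8 was sequenced as single-end reads, according to the series' design text and protocols. The authors deposited expected counts (estimated reads per gene, not always whole) in 1 table per time, made with RSEM on GRCm38 (mm10), per the submitters' processing notes, which also name DESeq2. The annotation, strand setting and the filter that left 10393 and 7723 genes are given in no source used here, so a gene missing from a table says nothing of its change. All samples carry 1 batch label. At 72 h, 6 columns matched no label and were not used, and 1 DOX column, whose number matches no label, was used as a replicate without a number. No pair of libraries agreed within sampling noise.

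Expected counts were rounded, scaled with TMM factors (1.137 to 1.177 in DOX and 0.8511 to 0.8912 in V at 72 h) and filtered with filterByExpr, which left 10393 and 7703 genes. Each comparison used edgeR 4.0.16 (R 4.3.3) robust quasi-likelihood fits over all libraries of a time, or over all 18 libraries to compare the times, and p-values were adjusted (Benjamini-Hochberg) over every gene tested, at a threshold of 0.05. A prior count of 2 entered log2 CPM. The SE is the absolute change over the square root of F. The tests were also run on simulated counts in which few genes changed, in both directions. The DOX comparisons called far more genes, so the simulation does not measure their error rate. A design with all 12 libraries at 72 h became one of 6. Gene positions and lengths come from GENCODE annotation of GRCm38, promoters from RefSeq. The members and lists were chosen with earlier results of these data known. All members are named in each comparison, and from each list up to 4 genes past the threshold with the smallest p, or fewer, with others named to complete a count. Same-numbered libraries at 16 h correlated from -0.415 to 0.25 in their deviations from group means, so numbers were not taken to pair them. Alternatives were RLE factors, mitochondrial genes left out, no filter, DESeq2 1.42.0, a minimum mean of 5 CPM, a replicate block, only the groups compared, the markers' median as denominator and each library left out. Counting precision is set by 9255708 to 20587603 counts per library. Some genes of the further lists enter the counts and medians of those lists but are not reported here by name.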

Additional observations from a re-analysis of the deposited data

Results flagged for a closer look

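For 3 of the 10 genes the doxorubicin change differed between the times by a test of the difference itself, in the edgeR fit of all 18 libraries. Of all 7422 genes in that fit, 27% passed, so the count is near the share of all genes. Pkp2 was 0.77 higher on the log2 scale at 72 h than at 16 h (± 0.17 SE, edgeR adjusted p = 0.00478), with every DOX library above every V library at 72 h and below at 16 h. Cdh2 was 0.83 higher (± 0.28 SE, edgeR adjusted p = 0.0397), with every DOX library below every V library at 16 h and overlapping groups at 72 h. That call on Cdh2 passed in 3 of the 12 fits that left out 1 library (edgeR adjusted p from 0.034 to 0.0947) and not with the replicate block (0.795, edgeR adjusted p = 0.0757). Ctnna3 was lower at 72 h, at -0.97 (± 0.2 SE, edgeR adjusted p = 0.00281), with overlapping groups at 16 h and none at 72 h. The 2 times come from separate tables, whose libraries share no sample, and time cannot be told apart from whatever else differed between the 2 sets of hearts. The cardiomyocyte marker sum was 45225 to 47835 CPM in DOX and 77006 to 86814 CPM in V hearts at 16 h, and 27205 to 32597 CPM in DOX and 65183 to 75402 CPM in V hearts at 72 h; its part in these differences was not tested.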

How the results depend on the processing

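RLE factors, leaving out mitochondrial genes, no filter and a mean of at least 5 CPM changed no call among the 10 genes. DESeq2 called Ctnnb1 at 16 h as well (-0.165, adjusted p = 0.0329), and called 12 genes in H against V, 379 in DOXH against DOX, 131 in DOXH against V and 42 in the interaction, where edgeR called 0; the cause was not tested. With only the groups compared in the fit, Dsg2 and Jup passed at 16 h, 4571 genes were called in DOX against V, and 1 in each of the DOXH comparisons. Dsg2 in H against V turned to -0.006 there, Vcl in DOXH against V to 0.004. Numbers do not pair the libraries at 16 h, and at 72 h 2 numbered pairs correlated at 0.197 and 0.245. With the replicate block, which at 72 h drops the DOX replicate without a number and V replicate 3, 3064 genes passed at 16 h, 3820 at 72 h and 1239 in the difference between times. Under this block Ctnnb1 (-0.25, adjusted p = 0.114) and Pkp2 (0.285, adjusted p = 0.0515) missed the threshold at 72 h, as did the Cdh2 difference between times (0.795, adjusted p = 0.0757), and Dsg2 in H against V turned to -0.011. It changed no other call on the 10 genes. Leaving out 1 library at a time gave 1928 to 2409 genes in DOX against V at 16 h, 0 to 47 in H against V (47 without H replicate 1), 0 to 1554 in DOXH against DOX (0 to 3 of the 10 genes), 0 to 1674 in DOXH against V (0 to 4 of the 10 genes) and 0 to 254 in the interaction (254 without DOXH replicate 2, 29 without H replicate 1). Estimates near 0 changed sign over these libraries, none of them called: in DOX against V at 16 h Vcl -0.107 to 0.032, in H against V Cdh2 -0.094 to 0.125, Ctnna3 -0.112 to 0.177, Dsc2 -0.024 to 0.191, Dsg2 -0.124 to 0.177, Dsp -0.141 to 0.122, Vcl -0.141 to 0.013, in DOXH against DOX Ctnna3 -0.053 to 0.122, Dsg2 -0.04 to 0.336, Gja1 -0.063 to 0.404, Vcl -0.071 to 0.106, in DOXH against V Dsg2 -0.272 to 0.106, Jup -0.304 to 0.053, Vcl -0.096 to 0.043, in the interaction Ctnna3 -0.143 to 0.144, Ctnnb1 -0.045 to 0.019, Dsg2 -0.042 to 0.336, Gja1 -0.409 to 0.064, Pkp2 -0.078 to 0.236, Vcl -0.035 to 0.162, in DOX against V at 72 h Cdh2 -0.197 to 0.04, in the difference between times Dsp -0.074 to 0.131, relative to the markers at 72 h Ctnna3 -0.116 to 0.185, relative to the markers in DOXH against DOX Dsp -0.003 to 0.269, Dsc2 -0.033 to 0.143. The markers' median as denominator turned no ratio. In all, 180 of 200 alternative counts stayed within 1.5 times, and of 1000 alternative fold changes 908 kept their direction and side of the threshold, 25 fell below it, 11 rose past it and 56 changed sign. With 3 libraries a group and these depths, small changes such as those of Ctnnb1 and Vcl may be missed.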
